A study of Mus musculus with 12 samples.

Results

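The cytosolic ribosomal protein genes encode the proteins that, with ribosomal RNA, make up the ribosome of the cytoplasm. They were found by gene symbol, as every row of the deposited expression table named Rps or Rpl with a number and, where present, a suffix of a paralog, together with Rplp0, Rplp1, Rplp2 and Rpsa. This gave 83 of the 24318 genes listed, 32 of the small subunit and 51 of the large subunit. RNA came from the hippocampus of mice 7 months old, in 3 libraries labelled 5xFAD and 3 labelled WT that carry the title prefix CG. The 5xFAD strain bears transgenes of familial Alzheimer's disease, human APP among them, expressed in neurons from Thy1 regulatory sequence, and WT mice lack them. No treatment is named in the labels for either group, and the labels do not state whether the libraries of a group came from different animals, so the spread between them may be technical.

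A ribosome joins a small subunit, which reads the messenger RNA, to a large subunit, which forms the peptide bond. Each core protein is needed in about equal number, and the transcripts of these genes are among the most abundant in most cells. In mammals they typically begin with a C followed by a run of C and T, the terminal oligopyrimidine tract, through which the kinase mTOR and the RNA-binding protein Larp1 control their translation. A few genes have paralogs with restricted expression, such as Rpl3l in heart and skeletal muscle and Rpl10l in testis.

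The values are FPKM, fragment numbers corrected for gene length and for the size of the library. They show shares of each library, not amounts. The annotation behind the gene lengths is not stated, so rankings of genes by level below are those of the listed values. Whether they hold for the RNA itself was not tested. Total FPKM ran from 393245 to 411964 in the libraries labelled 5xFAD and from 385214 to 412157 in WT. Low values put the relative depth at 0.980 to 1.15 in libraries labelled 5xFAD and 0.793 to 1 in WT, with WT replicate 1 set to 1 and WT replicate 2 the shallowest. Thy1 stood at 1136 and 1172 FPKM in 5xFAD replicates 1 and 2 and at 305 in the library labelled 5xFAD replicate 3, against 296 to 340 in WT. The third library therefore goes against its label, and the differences between genotypes below are also given without it. The summed level of 4 hippocampal neuron genes, Prox1, Dsp, Wfs1 and Fibcd1, was 80.9 to 96.8 FPKM in the libraries labelled 5xFAD. In WT it was 91.1 to 108 FPKM, and none of the 4 was at 0 in every library. No other brain region was compared, so these values cannot test whether the tissue was hippocampus.

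Ribosomal protein transcripts held 5.72%, 5.88% and 4.77% of total FPKM in the libraries labelled 5xFAD, against 5.27%, 4.20% and 5.25% in WT. The means were 5.46% ± 0.602 and 4.91% ± 0.610 (SD, n = 3 each), so the difference of 0.548 percentage points was smaller than either SD. The difference was 0.892 percentage points without the library labelled 5xFAD replicate 3 and 0.196 without WT replicate 2. The groups overlapped, since the library labelled 5xFAD replicate 3 lay below WT replicates 1 and 3. The small subunit accounted for 2.45%, 2.60% and 2.10% in the libraries labelled 5xFAD and 2.24%, 1.87% and 2.32% in WT. The large subunit accounted for 3.27%, 3.28% and 2.67% against 3.03%, 2.33% and 2.93%. Both subunits were thus lowest in the same library, WT replicate 2.

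Of the 83 genes, 80 passed the filter of a mean of at least 0.5 FPKM and entered the test. The other 3 were all paralogs. Rpl10l was listed at 0 in every library. Rpl3l stood at 0.125, 0.0647 and 0.243 FPKM in the libraries labelled 5xFAD and 0.189, 0 and 0.129 in WT. Rpl39l, a paralog of Rpl39, stood at 0.251, 0.263 and 0 FPKM in the libraries labelled 5xFAD and at 0.127, 0 and 0 in WT. A listed 0 need not mean absent RNA, since it may be an estimate that failed, and these genes get no fold change.

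Levels of the 80 tested genes were uneven. Their median over libraries was 225 FPKM, 66 of them averaged at least 100 FPKM, and the range ran from 5.11 for Rps27 to 1212 for Rpl38. Rpl38, a small large-subunit protein known for its role in translating Hox messages in mouse embryos, led with 1480, 1384 and 998 FPKM in the libraries labelled 5xFAD and 1419, 720 and 1273 in WT. Rps29, a zinc-binding protein of the small subunit, followed at 1198, 1401 and 1037 FPKM against 1033, 858 and 1242. Neither gene separated the genotypes, as WT replicate 1 or 3 lay within the range of the libraries labelled 5xFAD. Rps21, Rpl41, Rps15 and Rps23 came next, at means of 895, 734, 674 and 619 FPKM in the libraries labelled 5xFAD. Their means were 946, 784, 708 and 665 FPKM in 5xFAD replicates 1 and 2 alone, and 879, 654, 639 and 560 FPKM in WT. Rpl41 encodes one of the shortest proteins known in eukaryotes, and Rps23 lies at the decoding centre.

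At the low end, 9 tested genes averaged under 40 FPKM, and 6 of these are core genes: Rps27, Rpl34, Rpl26, Rps15a, Rpl30 and Rpl22.

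RefSeq promoter windows of build GRCm38.p6 were matched for 62 of the 83 genes, in 74 windows that each run from 250 bases before to 50 after the annotated start. The files were made on mm9, and these coordinates are not used with them. The sequences below span 30 bases before to 20 after the start on the gene's strand, 5′ to 3′. Capitals mark the longest run of C and T between 10 bases before and 20 bases after the start. The first 4 belong to genes described here for their level or their place at the top of the differences. Rps6 is the target of the S6 kinases, Rps27 had the largest difference, and Rpl7l1 and Rpl10l are paralogs shown for contrast. They are a choice, and other such genes with a matched window, Rpl39 and Rps25 among them, are not shown. Every core gene shown holds a run of at least 9 bases, where 38.7% of matched genes hold a run of at least 8.
Rpl38, chr11:114668550-114668599, + strand: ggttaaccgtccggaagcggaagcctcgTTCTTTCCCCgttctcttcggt
Rps9, chr7:3704011-3704060, + strand: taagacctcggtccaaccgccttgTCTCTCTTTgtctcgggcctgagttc
Rplp2, chr7:141447621-141447670, + strand: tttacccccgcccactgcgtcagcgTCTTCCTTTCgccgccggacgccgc
Rps18, chr17:33955646-33955695, - strand: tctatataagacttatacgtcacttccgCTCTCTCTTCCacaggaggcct
Rps6, chr4:86857348-86857397, - strand: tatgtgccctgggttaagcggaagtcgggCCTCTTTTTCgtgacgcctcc
Rps27, chr3:90213629-90213678, - strand: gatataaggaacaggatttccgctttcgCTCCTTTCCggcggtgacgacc
Rpl7l1, chr17:46782637-46782686, - strand: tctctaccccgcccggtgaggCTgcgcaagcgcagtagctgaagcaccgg
Rpl10l, chr12:66284382-66284431, - strand: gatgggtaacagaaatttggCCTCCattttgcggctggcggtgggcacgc

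A run of at least 8 bases of C and T in that interval was held by 24 of 62 matched genes, or 38.7%, against 13.1% of the 17185 genes of the table with a RefSeq window. The motif CTTTC, read on the gene's strand within 25 bases of the start and often inside such a run, was held by 30.6% of the matched genes and 7.24% of all. The motif CCGGAAG, the core bound by ETS factors, searched on both strands of the whole window, was held by 40.3% and 12.8%. The motif AAGATGGCG, bound by YY1, was held by 6.45% and 2.19% on both strands. TATAAA, the TATA box, was held by 11.3% and 14.2%, and CACGTG, the E-box bound by Myc, by 9.68% and 9.19%, both searched on both strands. These matches are letters in a window and not sites shown to be bound. Among the 59 genes that were both matched and tested, the median log2 difference between genotypes was 0.16 for the 24 with the run of C and T and 0.15 for the 35 without it. Both medians were 0.26 without the library labelled 5xFAD replicate 3.

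The comparison of 5xFAD with WT hippocampus asked which of these genes differ between the genotypes. Over all 6 libraries the limma test on log2(FPKM + 1) called 0 of the 80 genes at a Benjamini-Hochberg adjusted p under 0.05, against 0.0069% of all 14500 genes tested. At an unadjusted p under 0.05 it counted 1 of the 80, Rps27, against 2.92% of all genes. Even so, 74 of the 80 differences were positive, or 92.5%, against 45.8% of all genes. Their median was 0.16 on the log2 scale, with quartiles of 0.10 and 0.21, against a median of -0.01 over all genes. The small subunit had a median of 0.15 with 30 of 32 positive, and the large subunit 0.17 with 44 of 48. Because all genes share the same 6 libraries, these counts carry no more replication than 3 samples a group. In hippocampal tissue, a change in the number of cells of a type and a change in RNA per cell cannot be told apart.

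**Figure D1:**
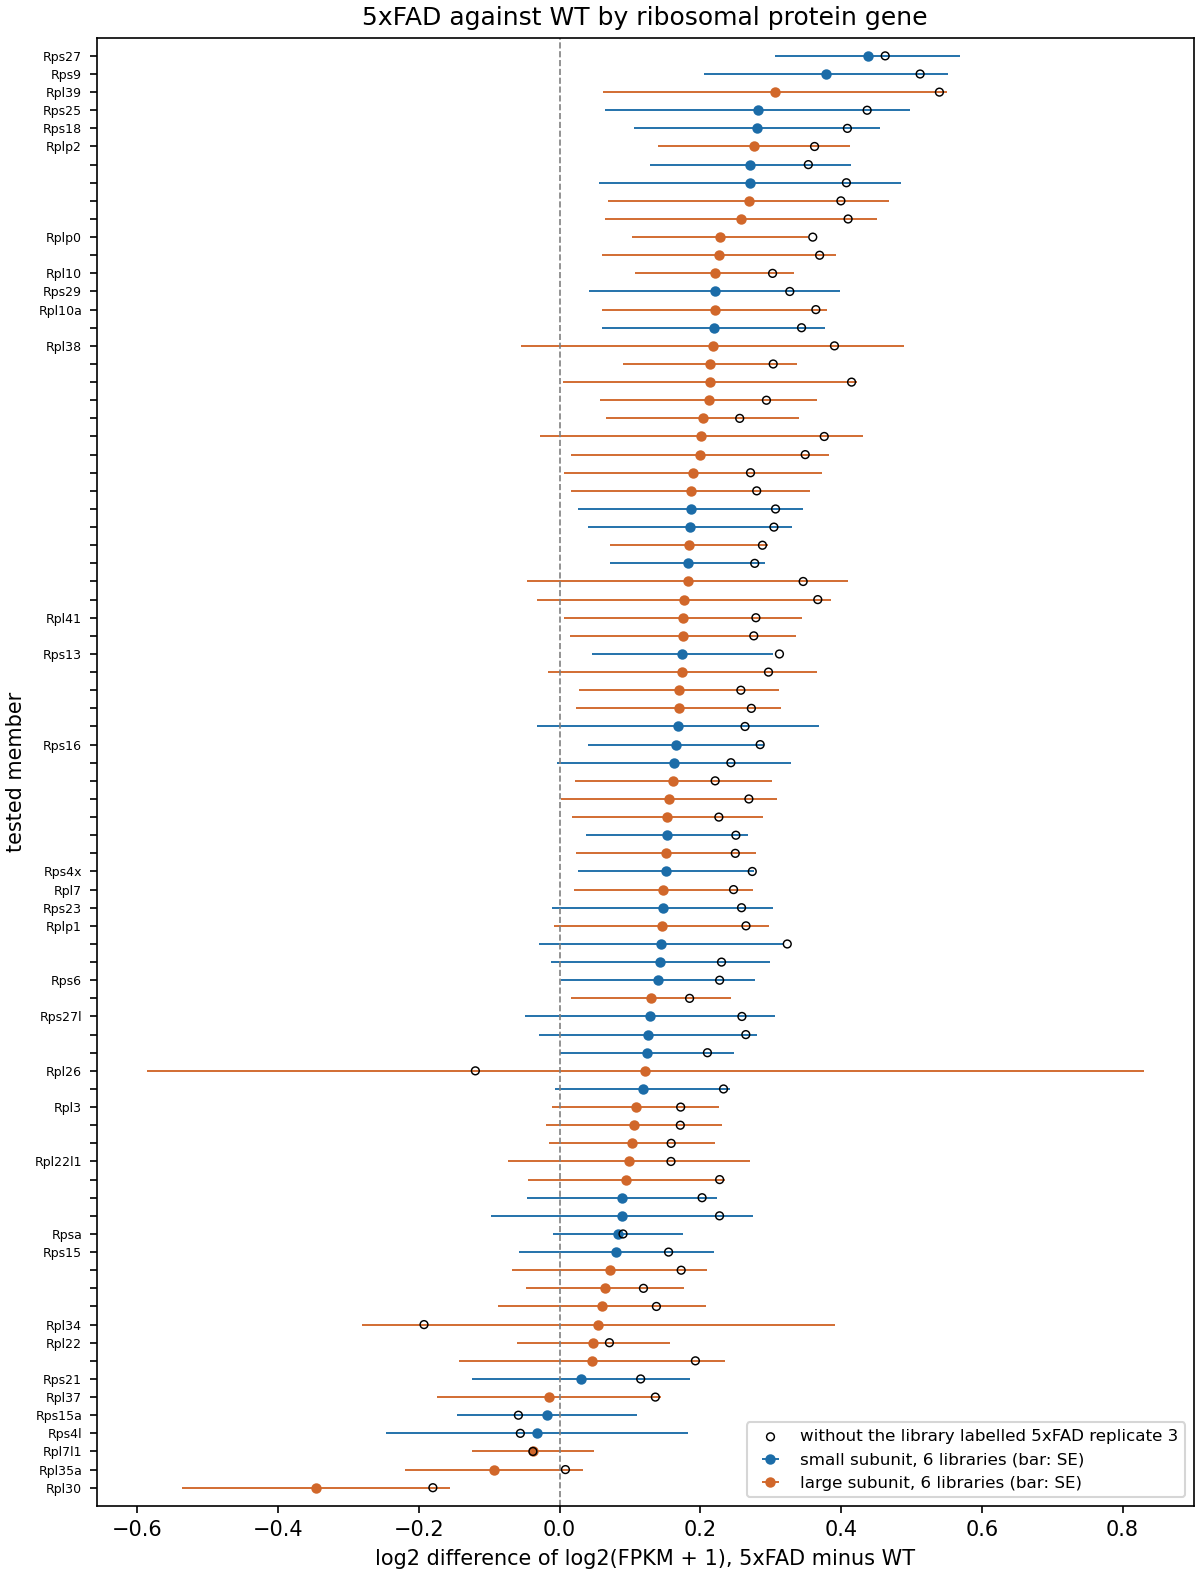
Log2 difference of 5xFAD minus WT on the log2(FPKM + 1) scale for the 80 tested genes, ordered by size, with the names of tested genes that the text names. Filled points and bars give the estimate and its SE over 6 libraries, blue for the small and orange for the large subunit, and open circles give the estimate without the library labelled 5xFAD replicate 3. The quartiles of the estimates are 0.10 and 0.21, the SE of Rpl26 is the widest, and Rps27 and Rpl30 lie at the ends.

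The size of the median depended on WT replicate 2 and on the library labelled 5xFAD replicate 3. WT replicate 2 was the lowest of all 6 libraries for 69 of the 80 genes, where 21.2% of all genes had their lowest value there. Measured as a difference from the mean of the 3 WT libraries, the median gene stood at 0.27, 0.26 and -0.04 in the libraries labelled 5xFAD and at 0.16, -0.25 and 0.11 in WT. The library labelled 5xFAD replicate 3 was the lowest of its group for 74 of the 80, against 31.0% of all genes. The median over all genes stayed within 0.01 of 0 in every library. Without WT replicate 2 the median difference was 0.04 with 52 of 80 positive. Without the library labelled 5xFAD replicate 3 it was 0.26 with 74 of 80 positive. The remaining fits without 1 library gave medians of 0.10 to 0.22 with 72 to 77 positive.

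**Figure D2:**
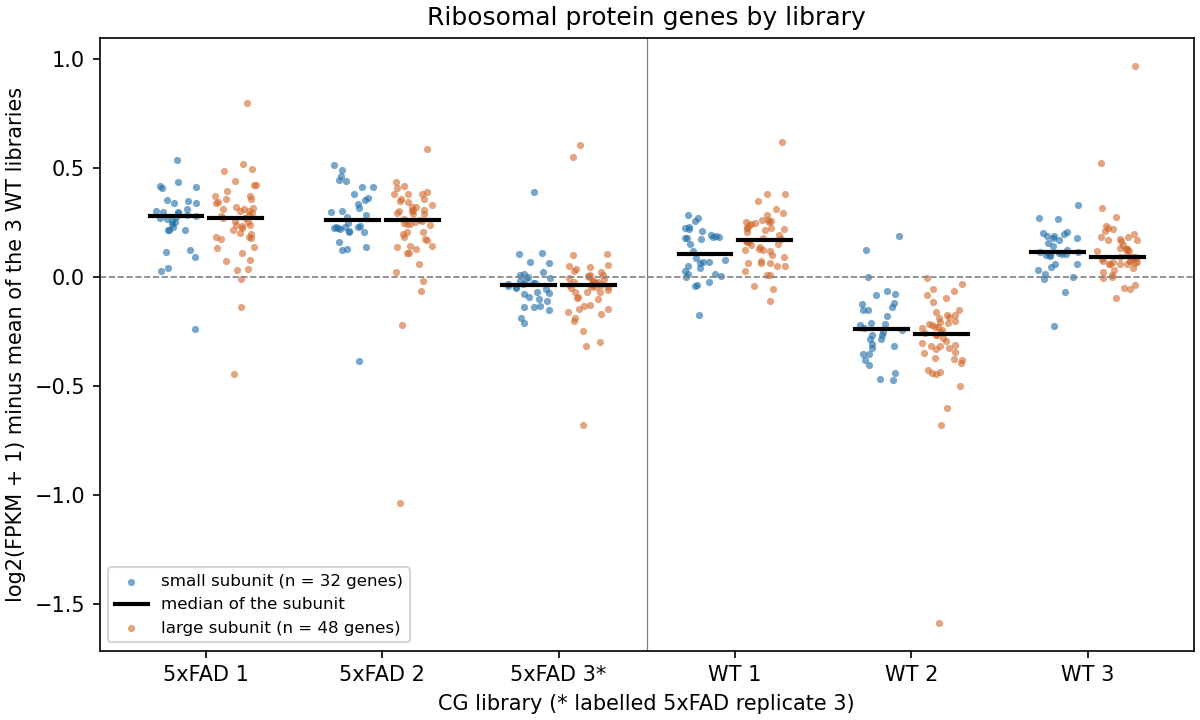
Log2(FPKM + 1) of each tested gene minus its mean over the 3 WT libraries, by library, with 1 point per gene (blue, 32 of the small subunit; orange, 48 of the large subunit) and a bar at the median of each subunit. In both subunits, 5xFAD replicates 1 and 2 sit highest, at medians from 0.26 to 0.28, and WT replicate 2 sits lowest, at -0.24 and -0.26.

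Without the library labelled 5xFAD replicate 3, the median difference was 0.26, a 1.20-fold higher level in 5xFAD, and 74 of 80 were positive against 45.7% of all genes. The median was 0.26 for the small subunit and 0.27 for the large subunit. Limma called 0 of the 80 at an adjusted p under 0.05, where 1.2% of all 14527 genes were called and 1.18% were called higher. At an unadjusted p under 0.05, 12 of the 80 were counted, or 15.0%, all higher in 5xFAD, against 5.91% of all genes in either direction and 4.96% higher. Among them were Rplp0, Rps9, Rps27, Rps13, Rpl39, Rpl10, Rps16, Rpl10a, Rps4x and Rplp2. Both 5xFAD libraries lay above all 3 WT libraries for 46 of the 80, or 57.5%, against 10.6% of all genes, and below all 3 for 0, against 7.5% of all genes (18.1% in either direction). Leaving out WT replicate 2 as well, which was decided after its values were seen, gave a median of 0.13 with 71 of 80 positive and 0 called.

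The stalk of the large subunit, which recruits and activates the elongation factors, is built of Rplp0 and pairs of Rplp1 and Rplp2. Rplp0 stood at 121, 125 and 93.4 FPKM in the libraries labelled 5xFAD and 102, 92.2 and 93.4 in WT. Replicates 1 and 2 were above all WT libraries and the third was within their range. Its log2 difference was 0.23 (SE 0.13, limma adjusted p = 1.00) over 6 libraries and 0.36 (SE 0.11, limma adjusted p = 0.361) without the third, the smallest adjusted p of the 80 genes in that fit. Rplp2 stood at 261, 258 and 217 FPKM against 236, 173 and 201, a difference of 0.28 (SE 0.14), or 0.36 (SE 0.15) without the third library. Its groups overlapped only in that the library labelled 5xFAD replicate 3 was below WT replicate 1. Rplp1 stood at 612, 598 and 471 FPKM against 484, 445 and 591, a difference of 0.15 (SE 0.15), or 0.26 (SE 0.15) without the third library. Its value in WT replicate 3 came close to the higher 5xFAD libraries.

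**Figure D3:**
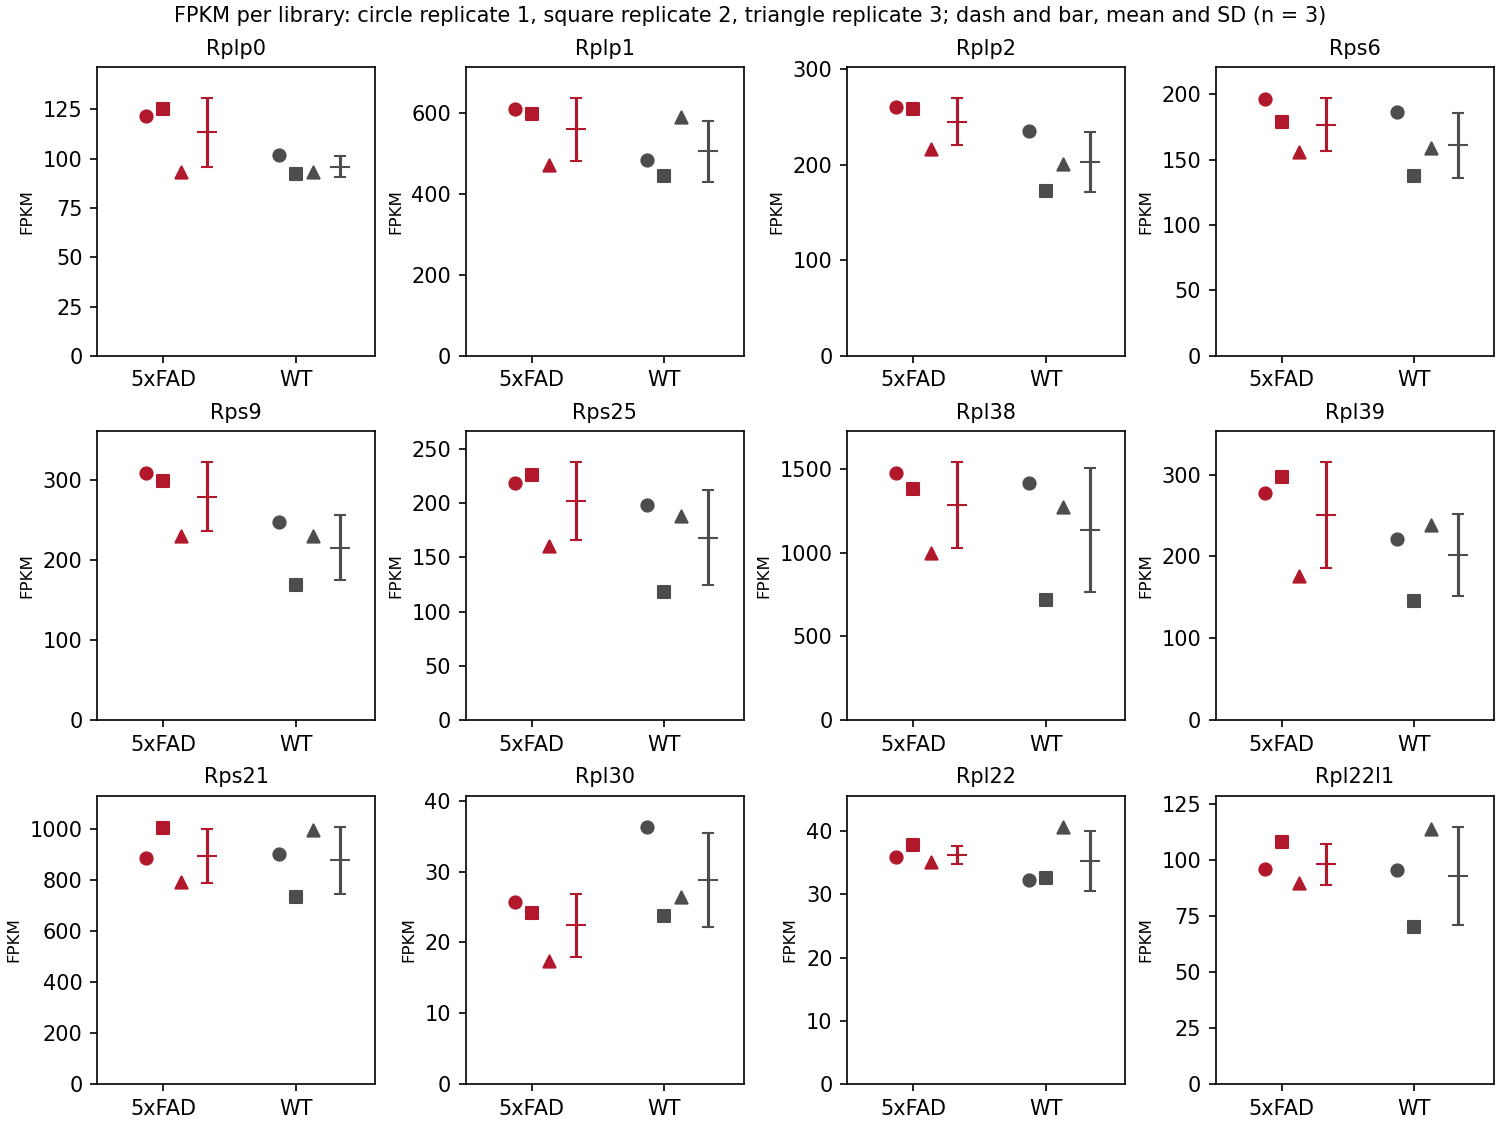
FPKM of 12 genes in each library labelled 5xFAD (red) and WT (grey), with circles, squares and triangles for replicates 1, 2 and 3 and a dash and bar for the mean and SD (n = 3). The triangle of 5xFAD lies below its circle and square in all 12 panels, and the square of WT is the lowest WT value in all panels except that of Rpl22.

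Among the core genes of the small subunit, Rps9, whose yeast counterpart affects decoding accuracy, had the largest difference after Rps27. It stood at 309, 299 and 230 FPKM in the libraries labelled 5xFAD and 248, 169 and 230 in WT, a difference of 0.38 (SE 0.17, limma adjusted p = 1.00). Its 5xFAD replicates 1 and 2 were above every WT library, and without the third library the difference was 0.51 (SE 0.17, limma adjusted p = 0.539). Rps25, needed for initiation at some viral internal entry sites, stood at 218, 226 and 161 FPKM against 198, 118 and 189, with a difference of 0.28 (SE 0.22), or 0.44 (SE 0.22) without the third library. Rps18, at the head of the small subunit, stood at 272, 273 and 208 FPKM against 233, 160 and 230, with a difference of 0.28 (SE 0.18), or 0.41 (SE 0.18) without the third library. For both genes 5xFAD replicates 1 and 2 lay above every WT library, the third did not, and WT replicate 2 was the lowest library.

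Rps6, the protein phosphorylated by the S6 kinases downstream of mTOR, had 196, 179 and 156 FPKM in the libraries labelled 5xFAD and 187, 137 and 159 in WT. The groups overlapped, and the difference was 0.14 (SE 0.14), or 0.23 (SE 0.15) without the library labelled 5xFAD replicate 3. Rps4x, the X-linked form of its protein, had 232, 212 and 172 FPKM against 192, 174 and 185, with a difference of 0.15 (SE 0.12), or 0.27 (SE 0.11) without that library. Rpsa, which also serves as a laminin receptor, had 161, 172 and 164 FPKM against 152, 148 and 170, with a difference of 0.08 (SE 0.09), or 0.09 (SE 0.12) without it. Its highest value was 1.17 times its lowest, a narrower range than that of any tested gene but Rpl7l1.

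In the large subunit, Rpl39, a short protein that lines the exit tunnel of the nascent chain, had the largest difference. It stood at 278, 297 and 176 FPKM in the libraries labelled 5xFAD and 221, 145 and 239 in WT, a difference of 0.31 (SE 0.24), or 0.54 (SE 0.21) without the third 5xFAD library. The third 5xFAD library was below 2 of 3 WT libraries, so the groups overlapped, while 5xFAD replicates 1 and 2 lay above every WT library. Rpl10, which in yeast joins late in subunit assembly, had 356, 402 and 319 FPKM against 298, 299.9 and 323, with a difference of 0.22 (SE 0.11), or 0.30 (SE 0.12) without the third library. Rpl3, close to the centre of peptide bond formation, had 401, 326 and 316 FPKM against 332, 303 and 327, with a difference of 0.11 (SE 0.12), or 0.17 (SE 0.13) without it. For Rpl7 the values were 265, 242 and 206 FPKM against 236, 190.2 and 216, with a difference of 0.15 (SE 0.13), or 0.25 (SE 0.13) without it. In all 3 of Rpl10, Rpl3 and Rpl7 the groups overlapped over 6 libraries. For Rpl10 and Rpl7, but not Rpl3, 5xFAD replicates 1 and 2 lay above every WT library.

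The 6 negative differences were those of Rpl30, Rpl35a, Rpl7l1, Rps4l, Rps15a and Rpl37. Rpl30, which in yeast controls the splicing of its own transcript, was at 25.7, 24.2 and 17.4 FPKM in the libraries labelled 5xFAD and 36.4, 23.8 and 26.4 in WT. It was low in both groups relative to most of the set and the groups overlapped, with a difference of -0.35 (SE 0.19, limma adjusted p = 1.00), or -0.18 (SE 0.18) without the library labelled 5xFAD replicate 3. Rpl35a, whose human gene is one of those mutated in Diamond-Blackfan anaemia, was at 246, 236 and 195 FPKM against 270, 221 and 230, with a difference of -0.09 (SE 0.13) that was 0.01 without the third 5xFAD library. Rpl37 was at 111, 110 and 80.5 FPKM against 112, 84.2 and 107, with a difference of -0.01 (SE 0.16) that was 0.14 (SE 0.14) without it. Rps15a was at 17.8, 23.1 and 22.2 FPKM against 18.6, 23.1 and 22.1, with a difference of -0.02 (SE 0.13), or -0.06 (SE 0.15) without it. Over 6 libraries each of these differences was within 1 SE of 0 except that of Rpl30.

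Paralogs of core genes varied in their listed level beside that of their partner. Rpl22l1 exceeded Rpl22, with 95.8, 108 and 89.7 FPKM in the libraries labelled 5xFAD against 95.3, 69.8 and 113 in WT, while Rpl22 had 35.9, 37.9 and 35.1 FPKM in the libraries labelled 5xFAD and 32.3, 32.6 and 40.7 in WT. The differences were 0.10 (SE 0.17) for Rpl22l1 and 0.05 (SE 0.11) for Rpl22, both within 1 SE of 0, and 0.16 (SE 0.20) and 0.07 (SE 0.13) without the library labelled 5xFAD replicate 3. Rpl7l1 was at 11.5, 11.0 and 11.2 FPKM against 12.1, 11.5 and 11.1, with a difference of -0.04 in both fits (SE 0.09 over 6 libraries), and had the narrowest range of the tested genes, 1.10 times from lowest to highest. Rps27l, a target of p53, was at 25.2, 24.3 and 18.6 FPKM against 20.2, 16.4 and 26.1, with a difference of 0.13 (SE 0.18), or 0.26 (SE 0.18) without that library. Of the 4 tested paralogs, 2 had positive and 2 negative differences, with a median of 0.03, or 0.06 without that library.

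Rps27 was the 1 tested gene for which every library labelled 5xFAD lay above every WT library, where 2.92% of all genes did so. Every library labelled 5xFAD lay below every WT library for 0 of the 80, against 2.74% of all genes (5.66% in either direction). Rps27 stood at 5.89, 6.37 and 5.76 FPKM in the libraries labelled 5xFAD and 4.31, 4.89 and 3.41 in WT, a difference of 0.44 (SE 0.13) with a limma adjusted p of 1.00, or 0.46 (SE 0.16) without the library labelled 5xFAD replicate 3. That level is far below the rest of the core set, and the table also lists Rps27rt, a gene named as a copy of Rps27, at 623, 979 and 658 FPKM against 665, 585 and 896. Rps27 made up only 0.379% to 0.937% of the sum of both. The difference of that sum was 0.07, or 0.15 without that library, and the sources used here do not say how reads shared by copies were divided. Rpl34 showed the same kind of split, at 9.40, 13.7 and 19.7 FPKM against 14.8, 7.83 and 19.3, beside Rpl34-ps1 at 226, 294 and 208 FPKM against 199, 191 and 252. Rpl34 differed by 0.06 (SE 0.34) and the sum of both by 0.17. Without the library labelled 5xFAD replicate 3 Rpl34 turned to -0.19 (SE 0.33) and the sum was 0.25. Levels of genes with such copies are uncertain in this table. The copies Rpl14-ps1, Rpl31-ps12, Rpl37rt, Rps15a-ps4, Rps15a-ps6 and Rps19-ps3 averaged from 0.691 to 4.97 FPKM in either group.

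Rpl26, which in human cells binds p53 messenger RNA, was singled out after its values were seen, as it varied most. It stood at 23.2, 5.79 and 20.2 FPKM in the libraries labelled 5xFAD and 20.4, 3.64 and 26.2 in WT, so that replicate 2 of each genotype was low. Its highest library was 7.21 times its lowest, where the median over the tested genes was 1.49. Rps4l, a paralog of Rps4x, was also lowest in replicate 2 of each genotype, at 19.2, 11.8 and 15.9 FPKM against 18.6, 11.6 and 17.9. The differences between genotypes were 0.12 (SE 0.71) for Rpl26 and -0.03 (SE 0.21) for Rps4l. Without the library labelled 5xFAD replicate 3 Rpl26 turned to -0.12 (SE 0.80) and Rps4l was at -0.06 (SE 0.25).

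**Figure D4:**
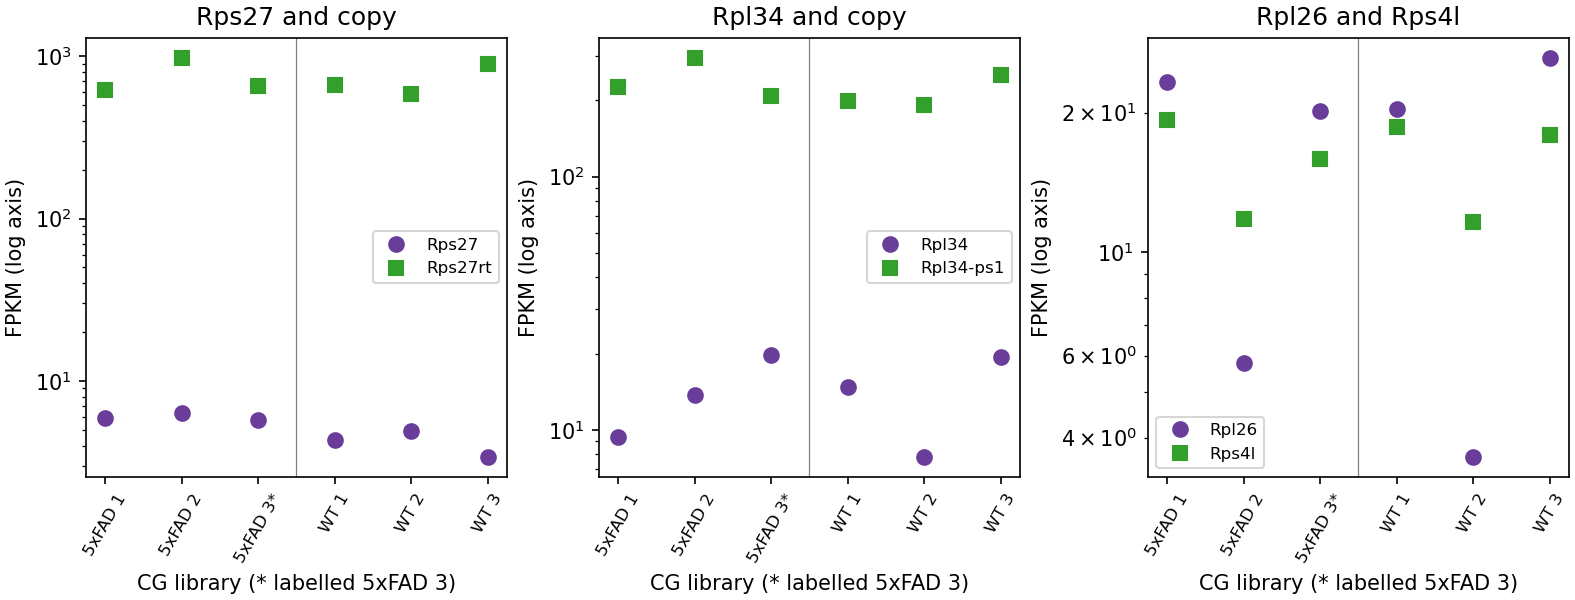
FPKM on a log axis in each library, with 5xFAD left of the grey line and WT right of it, for Rps27 and Rps27rt (left), Rpl34 and Rpl34-ps1 (middle), and Rpl26 and Rps4l (right). The named copies stand far above Rps27 and Rpl34 in all 6 libraries, and Rpl26 and Rps4l are lowest in replicate 2 of both genotypes.

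Genes of the same machinery outside the symbol rule were described from lists of translation. The 6 cytosolic ribosomal genes with other names, among them Fau, Gnb2l1, Rps3a1, Rpl36al and Rps27rt, had 6 of 6 positive differences, a median of 0.13 and 0 called. Fau, a fusion that yields Rps30, was at 329, 337 and 268 FPKM in the libraries labelled 5xFAD and 286, 159 and 278 in WT, with a difference of 0.41 (SE 0.22), or 0.51 (SE 0.25) without the library labelled 5xFAD replicate 3, and its lowest value in WT replicate 2. Gnb2l1, the scaffold Rack1 of the small subunit, was at 80.0, 80.5 and 69.4 FPKM against 69.2, 73.1 and 74.6.

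Of 40 translation factors, 21 were positive, with a median of 0.01 and 0 called. Eef1g, a subunit of the elongation factor complex, differed by 0.16 (SE 0.10), Pabpc1, the poly(A)-binding protein, by 0.14 (SE 0.10), Eif1a by -0.24 (SE 0.08) and Etf1, the release factor, by -0.15 (SE 0.08). Eif1a, an initiation factor that scans for the start codon, was at 12.5, 11.6 and 12.3 FPKM in the libraries labelled 5xFAD and 14.5, 14.5 and 14.6 in WT. These groups did not overlap, and Eif1a did not pass over all genes (limma adjusted p = 1.00). Every library labelled 5xFAD lay below every WT library for 2 of the 40 factors, against 2.74% of all genes, and above for 0, against 2.92%. Eif1ax, of the same list, averaged 62.6 FPKM in the libraries labelled 5xFAD and 62.7 in WT. Of 37 ribosome assembly genes, 20 were positive, with a median of 0.01 and 0 called, and the 4 with the smallest p were Mrto4, Bop1, Taf1d and Gar1, at 0.19, -0.13, 0.28 and -0.16. Of 76 genes of the mitochondrial ribosome, a separate ribosome that translates the mitochondrial genome, 31 were positive, with a median of -0.02 and 0 called. Mrps7 differed by -0.18 (SE 0.10) and Mrpl4 by 0.16 (SE 0.09). Of 25 genes of the TOR pathway and of ribosome control, 12 were positive, with a median of 0.00 and 0 called. In that list Rps6ka1, a kinase of the ribosomal S6 family, differed by 0.36 (SE 0.15) and Eif4ebp1, a repressor of the cap-binding factor, by 0.46 (SE 0.23), neither past the test. Eif4ebp1 was low, at 1.91, 3.09 and 1.43 FPKM in the libraries labelled 5xFAD and 1.84, 0.977 and 0.991 in WT. Without the library labelled 5xFAD replicate 3, Rps6ka1 was at 0.48 (SE 0.15), Eif4ebp1 at 0.63 (SE 0.23), Eif1a at -0.25 (SE 0.11), Etf1 at -0.16 (SE 0.11), Eef1g at 0.16 (SE 0.12) and Pabpc1 at 0.19 (SE 0.11). In that fit Mrto4, Bop1, Taf1d and Gar1 were at 0.21, -0.12, 0.37 and -0.15, Mrps7 at -0.18 (SE 0.12) and Mrpl4 at 0.12 (SE 0.11). Without the library labelled 5xFAD replicate 3 the medians were 0.21, 0.02, 0.02, 0.01 and -0.01 for the other cytosolic ribosomal genes, translation factors, assembly, mitochondrial ribosome and TOR lists, again with 0 called. The low values in WT replicate 2 were shared by some of these lists, with medians of -0.23, -0.07, -0.19, -0.18 and 0.05 there in the same order. No test of the difference between these lists and the ribosomal protein genes was made.

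**Figure D5:**
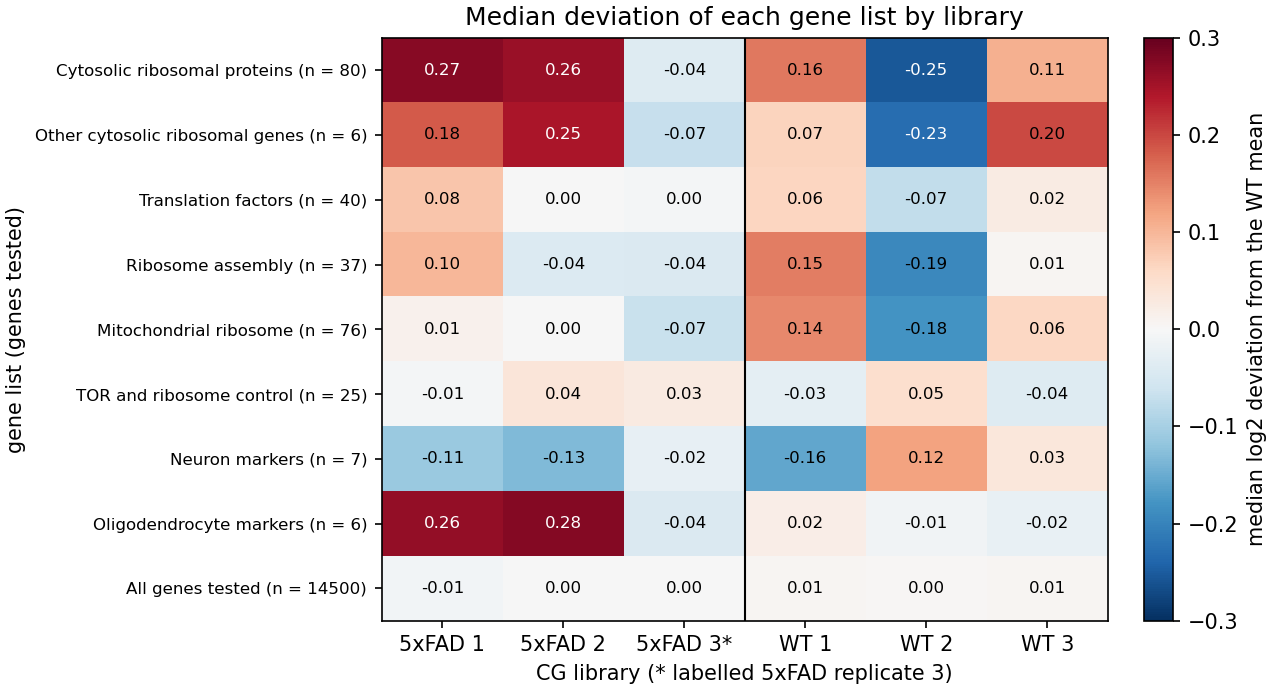
Median difference from the WT mean on the log2(FPKM + 1) scale for each gene list (rows, with the number of genes tested) in each library (columns, 5xFAD left of the black line), red for higher and blue for lower. Cytosolic ribosomal protein genes reach 0.27 and 0.26 in 5xFAD replicates 1 and 2 and -0.25 in WT replicate 2, while the median of all genes stays within 0.01 of 0.

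Markers of other cell types moved in the same libraries. Summed microglial markers (8 of 8 listed; here and below no marker was at 0 in every library) stood at 670, 630 and 187 FPKM in the libraries labelled 5xFAD and 169 to 194 in WT. Plaque-associated microglial markers (8 of 8) stood at 410, 330 and 40.0 FPKM against 34.7 to 46.1. Both sums were high in 5xFAD replicates 1 and 2 and near WT in the third. Astrocyte markers (6 of 6) stood at 1397, 1493 and 1067 FPKM against 881 to 1150. Gfap, the intermediate filament of astrocytes, made up 589, 449 and 106 FPKM of this, against 118, 99.1 and 95.9 in WT. Without Gfap the sum was 808, 1044 and 961 FPKM against 763, 1051 and 879, with the libraries labelled 5xFAD inside the WT range. Oligodendrocyte markers (6 of 6) stood at 1930, 1945 and 1555 FPKM against 1579 to 1750, and their median difference from the WT mean was 0.26, 0.28 and -0.04 in the libraries labelled 5xFAD. Neuron markers (7 of 7) stood at 2480, 2512 and 2631 FPKM against 2527 to 2813, with WT replicate 2 the highest. Vessel markers (6 of 6) summed to 47.4 to 57.7 FPKM in the libraries labelled 5xFAD and 46.6 to 54.3 in WT. The microglial and oligodendrocyte sums and Gfap were thus high in the 2 libraries where ribosomal protein genes were highest. In WT replicate 2 the microglial and astrocyte sums were the highest of WT, the plaque-associated sum was the lowest and the oligodendrocyte sum lay between those of the other WT libraries. Choroid plexus markers (6 of 6) ran from 56.6 to 494 FPKM against 41.8 to 2851, and blood markers (5 of 5) from 114 to 344 against 125 to 223. Rpph1, a structured RNA, took 9.98%, 8.61% and 8.21% of total FPKM in the libraries labelled 5xFAD and 9.31%, 7.41% and 8.18% in WT, where replicate 2 was again the lowest. With each library rescaled to its total without genes over 1% of it, Rpph1 among them, the median difference was 0.17 with 74 of 80 positive. Beyond that rescaling, the part of these markers, of Rpph1 and of depth in the ribosomal protein values was not tested.

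The AT libraries, 3 labelled 5xFAD and 3 labelled WT, were read as those of A-tailed RNA treated with RNase R, an enzyme that digests linear RNA, since the design text names that treatment and the titles carry the prefix AT. Their table lists 7025 intervals under 2948 gene names, and the kind of interval is not stated. The 2948 names stand beside 24318 genes listed for the CG libraries, so most genes have no listed interval. Of the 7025 intervals, 0 carried the name of a ribosomal protein gene. Whether that count is low for genes of their level was not tested. Every listed interval reaches a signal of at least 2.03 in all 3 libraries of 1 group, so intervals below that level are outside this count.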

How the data were processed

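Hippocampal RNA was measured in 6 CG libraries (3 labelled 5xFAD, 3 WT), and the interval table of 6 AT libraries was read for gene names and signal. Per the labels' protocols, the kits were Ribo-Zero for rRNA removal and NEBNext Ultra for the library. Per the submitters' processing notes, the build was mm9. No source used here names the quantifier, the annotation or the use of strand. The authors deposited FPKM per gene, whose denominator is not stated, and a scaled signal per interval.

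Genes were fitted over the whole table with limma 3.58.1 (R 4.3.3) with a mean trend on log2(FPKM + 1), for genes with a mean of at least 0.5 FPKM, two-sided, with Benjamini-Hochberg adjustment over all genes tested at 0.05. Fold changes on this scale understate those of low genes. FPKM are not counts, and their number of reads is unknown apart from relative depth. The fit was tested on simulated data with independent noise in each gene and with changes larger than those of the ribosomal protein genes. Shifts shared by many genes of a library, as seen here, were not simulated.

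Correlations of log2 values between libraries ran from 0.969 to 0.990. Members and lists were chosen with earlier results of these data known. Named genes were any called member (0), the 6 highest levels, the 6 largest and 6 smallest differences, a fixed set of paralogs and landmark genes, and up to 4 genes of each other list, while Rpl26, Rpl34, the copies, the share of Gfap, and the genes at an unadjusted p under 0.05 without the third 5xFAD library were named after their values were seen. Promoter windows came from RefSeq (GRCm38.p6). Some genes are counted but not reported here by name.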

Additional observations from a re-analysis of the deposited data

How the results depend on the processing

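Across 15 alternatives listed at the start and 1 chosen after seeing the data, 0 ribosomal protein genes were called, and the median difference stayed positive, between 0.04 (without WT replicate 2) and 0.26 (without the library labelled 5xFAD replicate 3). It was 0.08 with array quality weights, with 64 of 80 positive, and 0.15 to 0.17 under 3 rescalings. Among all genes, 174 were called without the library labelled 5xFAD replicate 3, against 1 in each other fit without 1 library, and 106 without both that library and WT replicate 2, the alternative chosen after seeing the data; the cause was not tested.

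Same-numbered libraries deviated together with correlations of 0.42, 0.28 and 0.04 over all genes, and the labels do not say that a number marks a shared animal or batch, so whether the numbers pair the samples is not known. With the replicate block the median was 0.16, 74 of 80 were positive and 1 of all genes was called. Over the ribosomal protein genes these correlations were 0.58, 0.59 and 0.47, and every library correlated best with its own number there. This is a hint from the data and not the design. Over all genes it did not hold, as the library labelled 5xFAD replicate 3 correlated best with WT replicate 2, at 0.15. Rpl26, the gene that varied most, lay at -1.04 and -1.59 from the WT mean in replicate 2 of 5xFAD and WT. How far these correlations rest on such genes was not tested.

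Of 34 named and tested ribosomal protein genes, 13 changed sign under some setting, and 0 were called under any. With array quality weights the differences were -0.091 for Rpl22, -0.093 for Rpl22l1, -0.034 for Rplp1, -0.0092 for Rps15, 0.0029 for Rps15a, -0.081 for Rps21, -0.12 for Rps27l, -0.82 for Rpl26 and -0.19 for Rpl34. Leaving out 1 library, or both doubtful ones, gave -0.0080 to 0.15 for Rpl22, -0.091 to 0.26 for Rpl22l1, -0.16 to 0.0084 for Rpl35a, -0.14 to 0.14 for Rpl37, -0.083 to 0.41 for Rpl38, -0.029 to 0.16 for Rps15, -0.11 to 0.092 for Rps15a, -0.091 to 0.13 for Rps21, -0.025 to 0.29 for Rps27l, -0.26 to 0.14 for Rps4l, -0.91 to 0.70 for Rpl26 and -0.53 to 0.32 for Rpl34. FPKM carry no read counts, so counting error is not known.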
